A study of Mus musculus with 24 samples.

Results

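The T cell and NK cell genes described here are 10 symbols: *Cd3d*, *Cd3e*, *Cd3g*, *Cd4*, *Cd8a*, *Gzma*, *Gzmb*, *Prf1*, *Nkg7* and *Ncr1*. They were chosen by name, though with earlier results of these data known. Each is read by 1 probe set, so they make up 10 of the 21,789 rows of the array table that name exactly 1 gene. They lie on chromosomes 6 (*Cd4*, *Cd8a*), 7 (*Nkg7*, *Ncr1*), 9 (the *Cd3* genes), 10 (*Prf1*), 13 (*Gzma*) and 14 (*Gzmb*). RNA came from the left lung lobe of male mice of the strain given as C57Bl/6N Tac, kept specific-pathogen-free and otherwise untreated. Wild-type littermates (WT) were compared with *Scnn1b*-Tg mice, which overexpress the β subunit of the epithelial sodium channel under a promoter of airway club cells, at postnatal day (PND) 0, 3, 10 and 42. The 8 groups held 3 Affymetrix Mouse Gene ST 1.0 arrays each, 24 in all. Per the study's methods each array carried RNA pooled from 3 mice, whereas the labels list 2 animal numbers for 23 arrays and 1 for *Scnn1b*-Tg PND 42 replicate 3. The lobe was neither sorted nor dissociated, so that fewer cells of a type and less RNA per cell cannot be told apart.

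T lymphocytes recognize peptides through a receptor whose signal passes into the cell through the CD3 chains, while CD4 or CD8 binds the presenting MHC molecule. NK cells lack that receptor and read activating and inhibitory receptors instead, among them NKp46, the product of *Ncr1*. Both lineages kill through granules that deliver granzymes into a target cell through pores made by perforin. Mice are born with few lymphocytes outside the thymus, and the lung gains them from the circulation after birth.

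The promoters of 4 members are shown because the age comparisons below turn on *Gzma*, *Nkg7* and *Cd3g*, and because *Cd3g* and *Cd3d* are transcribed away from each other. Their start sites lie 1355 bp apart, and no other gene has its midpoint between them. The 250 bases before each start site were taken from RefSeq (build GRCm38.p6), which held such windows for 9 of the 10 members. Each line gives the strand of the gene, 5′ to 3′, at chr13:113100982-113101231 (minus) for *Gzma*, chr7:43436888-43437137 (plus) for *Nkg7*, chr9:44980432-44980681 (minus) for *Cd3g* and chr9:44981536-44981785 (plus) for *Cd3d*. Capitals mark exact matches, on either strand, to TGTGGT (the core bound by RUNX factors), GGAAGT (a core bound by ETS factors) or GGTGTGA (bound by T-box factors), which share no overlap in these windows.
Gzma: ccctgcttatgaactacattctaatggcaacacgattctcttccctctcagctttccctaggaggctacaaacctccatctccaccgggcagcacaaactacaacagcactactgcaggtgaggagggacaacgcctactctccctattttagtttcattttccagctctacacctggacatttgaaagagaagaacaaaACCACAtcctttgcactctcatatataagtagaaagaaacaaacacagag
Nkg7: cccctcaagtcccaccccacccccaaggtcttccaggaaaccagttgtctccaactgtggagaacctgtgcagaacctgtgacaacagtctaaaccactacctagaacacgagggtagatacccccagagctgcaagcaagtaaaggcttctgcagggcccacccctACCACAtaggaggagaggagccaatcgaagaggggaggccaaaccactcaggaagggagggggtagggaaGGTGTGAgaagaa
Cd3g: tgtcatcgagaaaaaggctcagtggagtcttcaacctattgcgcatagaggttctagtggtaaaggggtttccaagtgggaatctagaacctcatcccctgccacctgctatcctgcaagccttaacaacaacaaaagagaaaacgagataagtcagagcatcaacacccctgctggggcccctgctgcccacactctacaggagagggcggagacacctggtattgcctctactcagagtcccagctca
Cd3d: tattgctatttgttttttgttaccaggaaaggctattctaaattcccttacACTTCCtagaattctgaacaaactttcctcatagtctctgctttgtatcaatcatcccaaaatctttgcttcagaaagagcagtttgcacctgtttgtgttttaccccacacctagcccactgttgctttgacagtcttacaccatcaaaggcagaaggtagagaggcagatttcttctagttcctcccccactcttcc
The capitals in the *Gzma* line are the RUNX core read from the opposite strand, starting 50 bases before the start site. *Nkg7* held that core 83 bases before its start and the T-box sequence 13 bases before it. *Cd3d* held 1 ETS match, 199 bases before its start, and *Cd3g* held none of the 3 motifs. Among the members with a window, the RUNX core was present in all 5 granule and NK cell genes (*Gzma*, *Gzmb*, *Prf1*, *Nkg7*, *Ncr1*) and in none of the 4 *Cd3* and *Cd8a* genes, against 14% of 32,851 windows of the same length. The ETS core was present in *Cd3d*, *Cd3e* and *Prf1* (19.7% of all windows) and the T-box sequence in *Nkg7* alone (3.33%). These matches describe letters only, and no binding was measured.

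The transgene separated the arrays by their labels. *Scnn1b* lay between 9.62 and 10.94 on the log2 scale in the *Scnn1b*-Tg arrays and between 6.37 and 8.22 in the WT arrays, and *Sftpc*, the surfactant protein C gene of alveolar type II cells, lay between 12.4 and 14.0 in all arrays. Several members were dim. The mean of *Cd3d*, *Cd3e*, *Cd4*, *Gzmb* and *Ncr1* stayed below 5 in all 8 groups, and the table carries no detection call. As a rough reference for background, chosen after the data were seen, the 1035 rows of olfactory receptor genes, a family known for the nose, had a 95th percentile of 4.64 in their mean level. *Cd3d*, *Cd4* and *Ncr1* lay below it in all 8 groups. At PND 0, 8 members in WT and 9 in *Scnn1b*-Tg lungs lay below it, *Cd3g*, *Cd8a* and *Nkg7* among them and *Gzma* not. Differences that start from such levels are differences in signal, not measured folds of RNA. Levels of different probe sets cannot be ranked against each other, so each gene is compared below with itself only. A pair of PND 42 arrays stood apart in these genes. WT PND 42 replicate 1 was the highest of its group in 8 of the 10 genes (mean deviation 0.37 log2 from the group means). *Scnn1b*-Tg PND 42 replicate 3, the array with 1 animal in its label, was the lowest of its group in 9 of the 10 (mean deviation -0.26). The main PND 42 results are therefore also given without them.

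**Figure D1:**
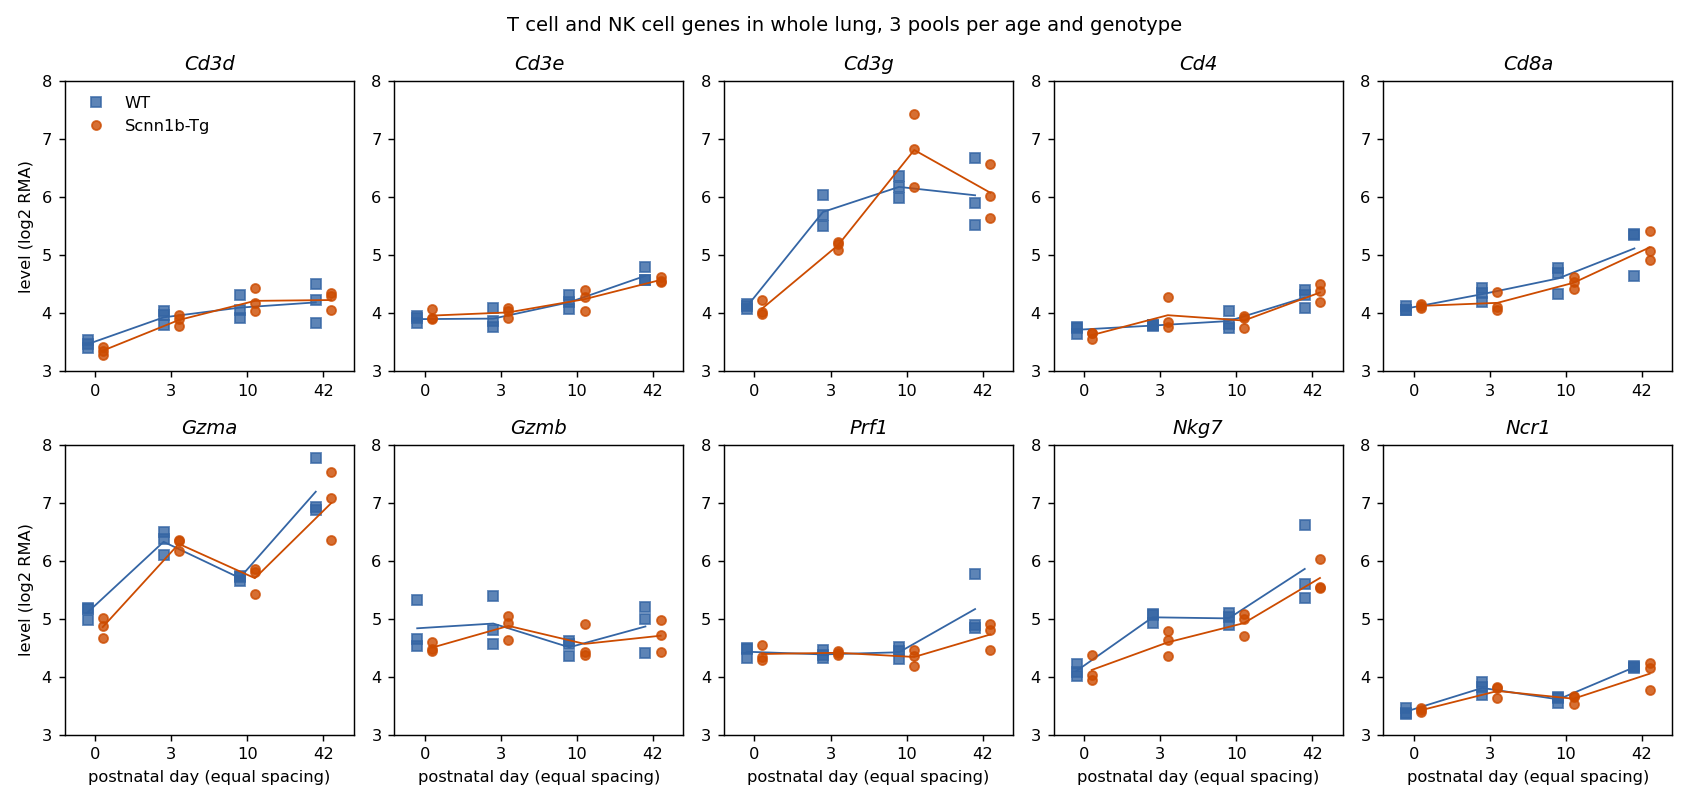
Level (log2 RMA signal) of each of the 10 genes on each of the 24 arrays, against age in days at equal spacing; squares are WT, circles are *Scnn1b*-Tg, and lines join the means of 3 arrays. *Gzma* and *Nkg7* are highest at PND 42 and *Cd3g* is lowest at PND 0. The ages overlap in *Gzmb*, except PND 0 and PND 3 in *Scnn1b*-Tg.

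In most of these genes the larger part of the variance lay between ages, though arrays of neighbouring ages often overlapped. Of the variance over the 24 arrays, between 76.1% (*Cd4*) and 89.7% (*Gzma*) lay between ages in 8 of the 10 genes, against 55.9% in *Prf1* and 20.0% in *Gzmb*. These 8 include *Cd3d*, *Cd4* and *Ncr1*, which lay below the olfactory receptor reference in every group. The same shares were not computed over all rows, so these are not read as particular to the members. The share between the genotypes within an age was at most 12.3% (*Prf1*). For *Gzmb*, 70.3% of the variance lay between arrays of the same group.

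The 3 CD3 chains were followed first. *Cd3g*, the γ chain, lay at 4.12, 4.07 and 4.15 on the WT arrays of PND 0 (replicates 1 to 3), at 6.04, 5.69 and 5.50 at PND 3, at 6.37, 6.17 and 5.99 at PND 10 and at 6.67, 5.52 and 5.90 at PND 42. In *Scnn1b*-Tg lungs it lay at 4.22, 4.03 and 3.98 at PND 0, at 5.09, 5.20 and 5.23 at PND 3, at 7.43, 6.82 and 6.18 at PND 10 and at 6.01, 6.57 and 5.64 at PND 42. The PND 0 arrays were thus the lowest in both genotypes, with no overlap with any later age, and the spread between pools was wide from PND 10 in *Scnn1b*-Tg and at PND 42 in both genotypes. From PND 0 to PND 3 *Cd3g* rose by 1.63 log2 in WT lungs (SE 0.27, adjusted p = 4.16e-05) and by 1.09 in *Scnn1b*-Tg lungs (SE 0.27, adjusted p = 0.00208; Benjamini-Hochberg adjustment in limma, as in all later tests). From PND 3 to PND 10 it rose by 1.64 in *Scnn1b*-Tg lungs (adjusted p = 0.00171), while the WT change was 0.43 (95% interval -0.12 to 0.99, adjusted p = 0.491). The difference between these 2 changes was 1.21 log2 (95% interval 0.42 to 2.00) and did not pass adjustment (adjusted p = 0.55). From PND 10 to PND 42 the *Scnn1b*-Tg value was lower by 0.74 (adjusted p = 0.0423, under 2-fold, in a comparison where 19.4% of all rows passed the adjusted p downwards), with the arrays of both ages overlapping, and the WT value differed by -0.14 (adjusted p = 0.74), or by -0.47 (adjusted p = 0.217) without WT PND 42 replicate 1. This last *Scnn1b*-Tg difference was -1.05 (adjusted p = 0.00593) without PND 10 replicate 3, -0.43 (adjusted p = 0.267) without PND 10 replicate 1 and -0.52 (adjusted p = 0.19) without PND 42 replicate 3. Over the whole course *Cd3g* rose by 1.92 in WT (adjusted p = 5.07e-06) and by 2.00 in *Scnn1b*-Tg lungs (adjusted p = 3.1e-06), from a PND 0 level not above the olfactory receptor reference. It rose by 1.60 in WT without PND 42 replicate 1 and by 2.21 in *Scnn1b*-Tg lungs without PND 42 replicate 3.

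*Cd3d* (δ chain) and *Cd3e* (ε chain) changed over a smaller range, 0.87 and 0.75 log2 between their lowest and highest group means. *Cd3d* lay between 3.28 and 3.54 on the 6 arrays of PND 0 and between 3.78 and 4.03 on those of PND 3, without overlap. It was higher at PND 3 by 0.46 in WT (SE 0.14, adjusted p = 0.0119) and by 0.53 in *Scnn1b*-Tg lungs (adjusted p = 0.00451), and differed by 0.09 and 0.01 from PND 10 to PND 42 (-0.07 in WT without PND 42 replicate 1). *Cd3e* differed by 0.01 and 0.05 from PND 0 to PND 3. It was higher at PND 42 than at PND 10 by 0.46 in WT (SE 0.11, adjusted p = 0.00275) and 0.33 in *Scnn1b*-Tg lungs (adjusted p = 0.024). None of these differences reached 2-fold. *Cd3d* lay below the olfactory receptor reference in every group and *Cd3e* in all but WT PND 42. The early rise of *Cd3d* lay within the 5th to 95th percentile of the olfactory receptor changes. Both timings are therefore read from signal near background. Within groups, the deviations of *Cd3d* from the group mean ran with those of *Cd3g* (r = 0.68 over 24 arrays) more closely than with those of *Cd3e* (r = 0.03). Both are neighbours of *Cd3d* on the chromosome, with start sites 1355 and 27,825 bp away. Members on different chromosomes also ran together within groups, *Gzma* with *Prf1* at r = 0.78. These are descriptions over 24 arrays that share their preparation, and the differences between the correlations were not tested.

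Of the coreceptors, *Cd8a* encodes the α chain of CD8, carried by cytotoxic T cells, and *Cd4* marks helper and regulatory T cells. *Cd8a* lay at 4.05, 4.13 and 4.06 on the WT arrays of PND 0 and at 5.34, 5.36 and 4.65 on those of PND 42. The *Scnn1b*-Tg arrays lay at 4.13, 4.08 and 4.17 at PND 0 and at 5.41, 5.07 and 4.92 at PND 42. All PND 42 arrays lay above all PND 0 arrays in each genotype, and WT replicate 3 was the lowest of the PND 42 arrays. Over this span *Cd8a* rose by 1.04 log2 in WT (SE 0.16, adjusted p = 1.64e-05) and by 1.01 in *Scnn1b*-Tg lungs (adjusted p = 2.3e-05), close to the 2-fold threshold. Without WT PND 42 replicate 1 the WT change was 0.92, below that threshold, with an adjusted p of 0.000237. The *Scnn1b*-Tg change was 0.87 without PND 42 replicate 1 and 0.99 without PND 0 replicate 2, so that the 2-fold call of *Cd8a* rested on single arrays in both genotypes. *Cd4* lay between 3.55 and 3.77 on the 6 PND 0 arrays and between 4.09 and 4.50 on the 6 PND 42 arrays. It was higher at PND 42 by 0.56 in WT (SE 0.12, adjusted p = 0.000767) and by 0.73 in *Scnn1b*-Tg lungs (adjusted p = 4.51e-05), under 2-fold in both.

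*Gzma*, a granule protease of NK cells and cytotoxic T cells, was called in 3 of the 4 age comparisons in both genotypes, where *Cd3g* was called in 2 in WT and 3 in *Scnn1b*-Tg lungs and no other member in more than 1. Its WT arrays lay at 5.18, 5.16 and 4.99 at PND 0, at 6.10, 6.50 and 6.38 at PND 3, at 5.72, 5.65 and 5.74 at PND 10 and at 7.76, 6.87 and 6.93 at PND 42. Its *Scnn1b*-Tg arrays lay at 4.67, 4.88 and 5.02, at 6.35, 6.17 and 6.35, at 5.85, 5.43 and 5.81 and at 7.09, 7.53 and 6.36 at the same ages. In both genotypes PND 0 was lowest and PND 42 highest, and the PND 10 arrays lay below the PND 3 arrays without overlap. *Gzma* rose from PND 0 to PND 3 by 1.22 log2 in WT (SE 0.23, adjusted p = 0.000156) and by 1.43 in *Scnn1b*-Tg lungs (adjusted p = 2.36e-05). It rose again from PND 10 to PND 42, by 1.49 in WT (adjusted p = 3.55e-05) and by 1.29 in *Scnn1b*-Tg lungs (adjusted p = 0.000166). Without WT PND 42 replicate 1 the WT change was 1.20, and without *Scnn1b*-Tg PND 42 replicate 3 the other was 1.61. Between PND 3 and PND 10 the difference was -0.62 (95% interval -1.09 to -0.15, adjusted p = 0.133) in WT and -0.59 (adjusted p = 0.188) in *Scnn1b*-Tg lungs. With both genotypes averaged, a contrast chosen after these values were seen, it was -0.61 (SE 0.16, adjusted p = 0.017, with 3.83% of all rows passing downwards), under 2-fold. From PND 0 to PND 42 *Gzma* rose by 2.08 log2 in WT (95% interval 1.61 to 2.55 log2, adjusted p = 2.09e-07), which is 4.23-fold. In *Scnn1b*-Tg lungs it rose by 2.13 log2 (adjusted p = 1.49e-07), which is 4.38-fold. Neighbouring intervals share the arrays of the age between them, so a high PND 3 group would raise the first change and lower the second.

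*Nkg7*, which encodes a membrane protein of cytotoxic granules, lay at 4.22, 4.01 and 4.07 on the WT arrays of PND 0, at 5.08, 5.06 and 4.93 at PND 3, at 5.02, 5.11 and 4.89 at PND 10 and at 6.62, 5.36 and 5.59 at PND 42. In *Scnn1b*-Tg lungs it lay at 4.38, 4.04 and 3.94, at 4.64, 4.79 and 4.36, at 4.71, 5.08 and 4.99 and at 5.54, 6.03 and 5.53. PND 42 did not overlap with any earlier age in either genotype, and WT PND 42 replicate 1 lay 1.03 above the next WT array. From PND 0 to PND 42 *Nkg7* rose by 1.76 in WT (SE 0.22, adjusted p = 1.2e-06) and by 1.59 in *Scnn1b*-Tg lungs (adjusted p = 4.41e-06). The WT value without PND 42 replicate 1 was 1.38 (adjusted p = 1.77e-06). Already from PND 0 to PND 3 it was higher by 0.92 in WT (adjusted p = 0.00166), short of 2-fold, against 0.48 (adjusted p = 0.0757) in *Scnn1b*-Tg lungs. The difference of these changes was -0.45 (95% interval -1.09 to 0.20, adjusted p = 0.998).

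*Prf1*, the perforin gene, and *Gzmb*, a granzyme that starts apoptosis of the target cell, were not called in any age comparison. *Prf1* lacked the rise of *Gzma* from PND 0 to PND 3. Its levels still ran with those of *Gzma* (r = 0.71 over 24 arrays), as did its deviations from the group means (r = 0.78). *Prf1* lay between 4.19 and 4.54 on all 18 arrays of PND 0, 3 and 10, at 5.77, 4.90 and 4.84 on the WT arrays of PND 42 and at 4.81, 4.91 and 4.47 on the *Scnn1b*-Tg arrays of PND 42. Its WT value was higher at PND 42 than at PND 10 by 0.74 (SE 0.17, adjusted p = 0.00186), or by 0.44 (adjusted p = 0.0108) without PND 42 replicate 1. In *Scnn1b*-Tg lungs the difference was 0.39 (adjusted p = 0.0906), or 0.52 (adjusted p = 0.0376) without PND 42 replicate 3. *Gzmb* had group means between 4.50 and 4.92 and arrays between 4.36 and 5.38, and no pair of neighbours in the order of its 8 group means was free of overlap. In *Scnn1b*-Tg lungs its PND 3 arrays (4.64 to 5.06) lay above its PND 0 arrays (4.44 to 4.59), as in 33.8% of all rows. Its change from PND 0 to PND 42 was 0.03 in WT (95% interval -0.44 to 0.50; -0.14 without PND 42 replicate 1) and 0.20 in *Scnn1b*-Tg lungs (95% interval -0.27 to 0.68). *Ncr1*, the NKp46 gene, lay between 3.35 and 3.47 on the 6 PND 0 arrays, between 3.63 and 3.91 at PND 3, between 3.54 and 3.67 at PND 10 and between 3.76 and 4.24 at PND 42. No group mean of *Ncr1* lay above the olfactory receptor reference, so these are small differences in a signal near background. From PND 0 to PND 3 it was higher by 0.41 in WT (SE 0.10, adjusted p = 0.00299) and 0.33 in *Scnn1b*-Tg lungs (adjusted p = 0.0119), and from PND 10 to PND 42 by 0.55 (adjusted p = 0.000289) and 0.43 (adjusted p = 0.00288).

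**Figure D2:**
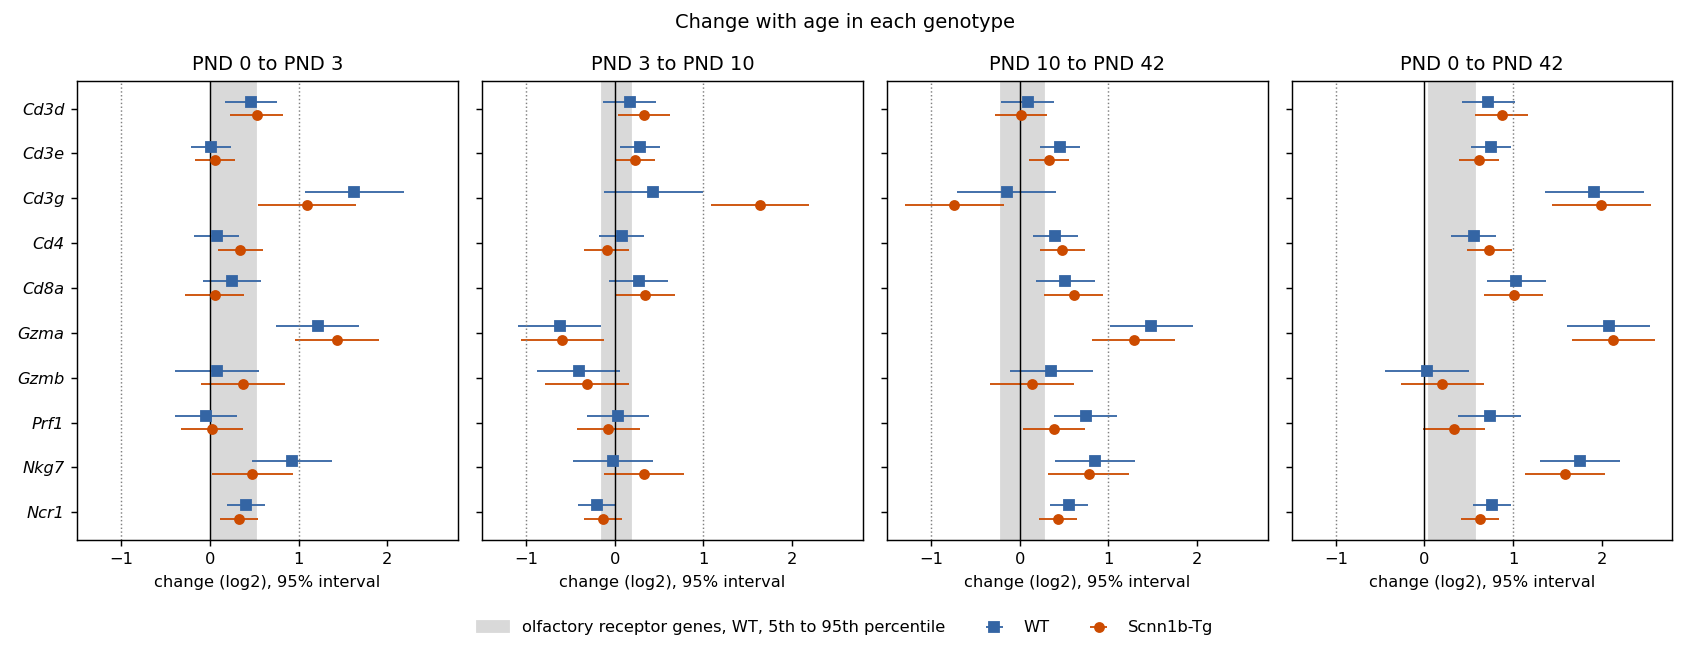
Change of each gene with age (log2, limma contrast with its 95% interval) in WT (squares) and *Scnn1b*-Tg lungs (circles), with dotted lines at 2-fold and a grey band from the 5th to the 95th percentile of the changes of 1035 olfactory receptor genes in WT lungs. In WT lungs *Cd3g*, *Gzma* and *Nkg7* lie to the right of the band from PND 0 to PND 3, and all members but *Cd3d* and *Cd3g* from PND 10 to PND 42, where *Gzma* alone passes 2-fold.

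A gene was called where its change reached 2-fold with an adjusted p no higher than 0.05. Between birth and PND 3, 2 members were called higher in WT lungs, *Cd3g* and *Gzma*, and the same 2 in *Scnn1b*-Tg lungs, where 1.96% and 2.26% of the 21,789 tested rows were called higher. From PND 3 to PND 10 the count was 0 in WT (background 1.05%; 2 members had an unadjusted p under 0.05) and 1 in *Scnn1b*-Tg lungs (*Cd3g*; 0.817%). From PND 10 to PND 42 it was 1 in each genotype (*Gzma*; 1.7% and 1.79%). Over the whole course from PND 0 to PND 42 the same 4 members were called in both genotypes, *Cd3g*, *Cd8a*, *Gzma* and *Nkg7* (1.71% and 2.48%), with the limit on *Cd8a* given above. No member was called lower in any age comparison, while 7.79%, 0.239%, 3.84% and 9.73% of all rows were called lower in these 4 comparisons in WT and 8%, 0.271%, 3.38% and 8.7% in *Scnn1b*-Tg lungs.

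The adjusted p alone gave other counts. At PND 3 against PND 0 it was passed upwards by 5 members in each genotype, against 21.7% of all rows in WT and 24.8% in *Scnn1b*-Tg lungs. From PND 3 to PND 10 it was passed by 0 in WT (3.56%) and by *Cd3g* in *Scnn1b*-Tg lungs (2.09%). From PND 10 to PND 42 it was passed upwards by 7 in WT (9.74%) and 6 in *Scnn1b*-Tg lungs (10.4%), all but *Cd3d*, *Cd3g* and *Gzmb* in WT and all but these and *Prf1* in *Scnn1b*-Tg lungs. *Cd3g* passed it downwards in *Scnn1b*-Tg lungs, as given above. Without WT PND 42 replicate 1 the WT count was 5, *Cd4* (adjusted p = 0.0517) and *Cd8a* (adjusted p = 0.097) no longer passing, and without *Scnn1b*-Tg PND 42 replicate 3 the other count was 7, with *Prf1* passing (adjusted p = 0.0376), so the order of these counts rested on these arrays. From PND 0 to PND 42 it was passed by 9 in WT (23%), all but *Gzmb*, and by 8 in *Scnn1b*-Tg lungs (22.6%), all but *Gzmb* and *Prf1*. The last count was 9 without *Scnn1b*-Tg PND 42 replicate 3, where *Prf1* passed (0.47, adjusted p = 0.0411). The arrays of the later age lay wholly above those of the earlier one in 7 members in WT and 6 in *Scnn1b*-Tg lungs for PND 0 and PND 3 (32.5% and 33.8% of all rows), in 0 and 3 for PND 3 and PND 10 (11.6% and 9.49%), in 6 and 6 for PND 10 and PND 42 (16.4% and 14.9%) and in 9 and 8 for PND 0 and PND 42 (28.8% and 26%). They lay wholly below in 2 members in WT (*Gzma* and *Ncr1*; 11.8%) and 1 in *Scnn1b*-Tg lungs (*Gzma*; 10.4%) for PND 3 and PND 10.

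The 1035 olfactory receptor rows also moved away from PND 0. From there to PND 3 their median change was 0.24 in WT and 0.30 in *Scnn1b*-Tg lungs, with 37.2% and 55.7% of them passing the adjusted p upwards. The part of this drift in the small early differences of *Cd3d*, *Cd4* and *Ncr1* was not tested. *Cd3g* and *Gzma* lay above the 95th percentile of the olfactory receptor changes in both genotypes in that interval (0.52 and 0.66), and *Nkg7* in WT alone. From PND 10 to PND 42 the same rows had a median change of 0.02 in WT and 0.004 in *Scnn1b*-Tg lungs with 2.9% and 2.8% passing, and 8 and 7 of the 10 members lay above their 95th percentile (0.28 and 0.29). Over PND 0 to PND 42 the olfactory receptor rows had a median change of 0.28 in WT and 0.29 in *Scnn1b*-Tg lungs, and 51.1% and 52.7% of them passed the adjusted p upwards, so that passing it over this span is common among dim rows. Above their 95th percentile (0.57 and 0.62) lay 8 members in WT, all but *Cd4* and *Gzmb*, and 7 in *Scnn1b*-Tg lungs, all but *Cd3e*, *Gzmb* and *Prf1*. Markers of other leukocytes moved with age as well: from PND 0 to PND 42 the list medians in WT and *Scnn1b*-Tg lungs were 0.56 and 1.28 for 10 genes of all leukocytes (0 and 7 called higher), 0.83 and 1.13 for 11 B cell markers (3 and 6) and 0.40 and 1.39 for 11 macrophage and monocyte markers (1 and 9), beside medians of -0.03 and -0.01 over all rows, of which 1.71% and 2.48% were called higher. The part of these cells in the members' changes was not tested.

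Between the genotypes, no member was called at any age. At PND 0 the 10 differences (*Scnn1b*-Tg minus WT) ran from -0.33 (*Gzmb*) to 0.06 (*Cd3e*), at PND 3 from -0.57 (*Cd3g*) to 0.18 (*Cd4*), at PND 10 from -0.08 (*Nkg7*) to 0.64 (*Cd3g*) and at PND 42 from -0.44 (*Prf1*) to 0.09 (*Cd4*). The lowest adjusted p at these ages was 1.00, 0.664, 0.458 and 0.326, and 0, 1, 1 and 1 members had an unadjusted p under 0.05. Of all rows, 0.0138%, 0.00918%, 0.106% and 0.326% were called higher and 0%, 0.00918%, 0.0459% and 0.0138% lower. At PND 3 the *Scnn1b*-Tg arrays of *Cd3g* (5.09, 5.20 and 5.23) all lay below the WT arrays (6.04, 5.69 and 5.50), and so did those of *Nkg7*, without overlap in 2 of 10 members against 5.91% of all rows in that direction. At PND 10 *Cd3g* was on the other side, higher by 0.64 (95% interval 0.08 to 1.19, adjusted p = 0.458), with overlap. Without *Scnn1b*-Tg PND 10 replicate 1, its highest array, that difference was 0.33.

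**Figure D3:**
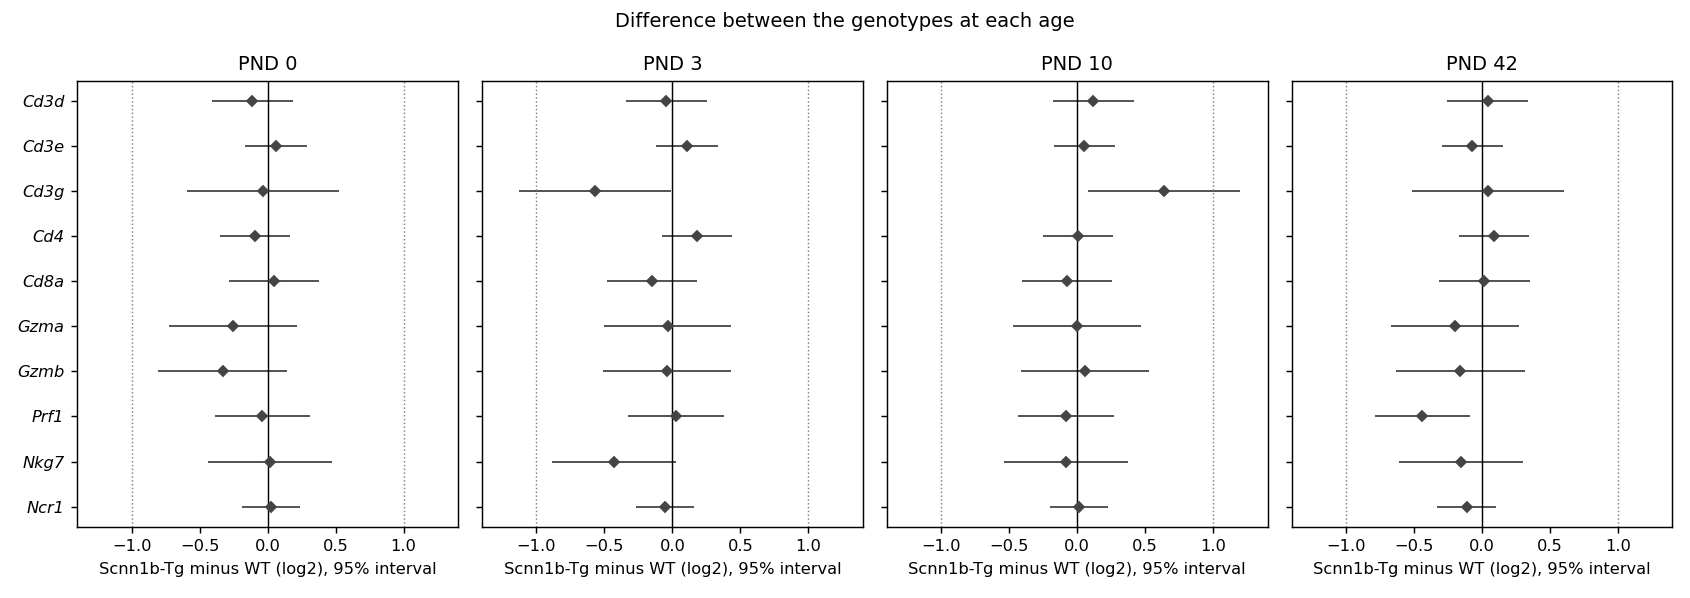
Difference between the genotypes (*Scnn1b*-Tg minus WT, log2, with 95% interval) for each gene at each age, with dotted lines at 2-fold. The interval of every gene crosses 0 at PND 0, and those that do not at the later ages are *Cd3g* at PND 3 and PND 10 and *Prf1* at PND 42, none of which passed adjustment.

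The intervals of these signal differences were as follows. At PND 0 the 95% intervals of all 10 genes lay within -0.80 and 0.52, at PND 42 within -0.79 and 0.60, so that a 2-fold difference in signal lay outside all of them. For members near background this bounds the signal and not the RNA. At PND 3 and PND 10 the interval of *Cd3g* reached -1.13 and 1.19, and a 2-fold difference in that gene was within its interval. Averaged over the 4 ages, a contrast added after the data were seen, the 10 intervals lay within -0.39 and 0.30 and no member was called. The changes with age differed between the genotypes in no member after adjustment (lowest adjusted p 0.998, 0.55 and 0.691 for the 3 intervals, with 0, 1 and 0 members under an unadjusted p of 0.05), where 0%, 0% and 0.193% of all rows were called in the upward and 0%, 0.00918% and 0.0321% in the downward direction. At PND 42 the median difference of the 10 genes was -0.09, against 0.002 over all rows, and its sign rested on single arrays: it was 0.10 without WT PND 42 replicate 1 and 0.07 without *Scnn1b*-Tg PND 42 replicate 3. Without WT PND 42 replicate 1 the difference in *Prf1* was -0.14 (adjusted p = 0.827) in place of -0.44, and those of *Gzma* and *Nkg7* were 0.09 and 0.22 in place of -0.20 and -0.16, while those of *Gzmb* (0.01 in place of -0.16) and *Cd3e* (0.01 in place of -0.07) were close to 0. The signs in these 4 genes at PND 42 therefore rested on that array. Without *Scnn1b*-Tg PND 42 replicate 3 the difference in *Prf1* was -0.31 (adjusted p = 0.537), that in *Gzma* 0.12 and that in *Ncr1* 0.03 in place of -0.11.

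**Figure D4:**
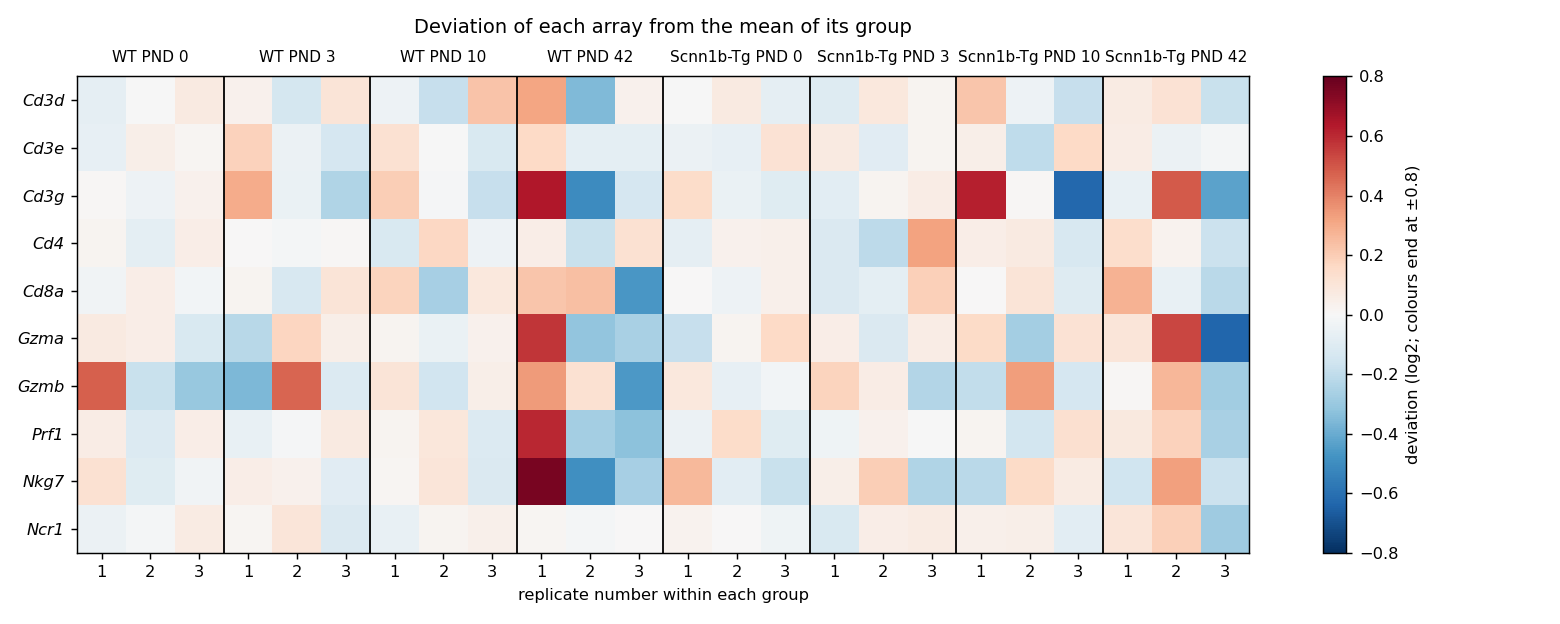
Deviation of each array (columns, replicates 1 to 3 of each group) from its group mean (log2) in each of the 10 genes (rows); red is above and blue below the mean, and colours end at 0.8. WT PND 42 replicate 1 lies above its group mean in all 10 genes, though barely in *Ncr1*, and *Scnn1b*-Tg PND 42 replicate 3 lies below its group mean in all 10, though barely in *Cd3e*.

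Further genes of these cells were counted in 4 lists of genes known for T cell receptor signalling and T cell identity, helper and regulatory T cells, NK cell receptors, and cytotoxic granules. Of 25 measured genes in the T cell list, 4 were called higher from PND 0 to PND 42 in WT and 4 in *Scnn1b*-Tg lungs (background 1.71% and 2.48%), the same genes in both. They were *Cd2*, an adhesion receptor (2.46 and 2.38 log2), *Ccr7*, the receptor that guides cells into lymphoid tissue (1.45 and 1.42), *Cd8b1*, the β chain of CD8 (1.29 and 1.15), and *Il7r*, the receptor of the survival cytokine IL-7 (1.15 and 2.33). The list's median change was 0.48 in WT and 0.57 in *Scnn1b*-Tg lungs, against -0.03 and -0.01 over all rows. Most of the list passed the adjusted p alone, 19 of 25 upwards in each genotype (23% and 22.6% of all rows, 51.1% and 52.7% of the olfactory receptor rows). Between PND 10 and PND 42 no gene of the list was called in WT lungs, where the lowest p were those of *Ccr7* (0.78, adjusted p = 0.000687), *S1pr1*, a receptor for exit from tissue (-0.95, adjusted p = 0.00301), *Cd2* (0.68, adjusted p = 0.00377) and *Cd8b1* (0.50, adjusted p = 0.00925). *Cd2* (1.41) and *Il7r* (1.04) were called in *Scnn1b*-Tg lungs. Of all rows, 1.7% in WT and 1.79% in *Scnn1b*-Tg lungs were called higher in this interval. *Prkcq*, a kinase that acts below the T cell receptor, rose by 1.20 in WT and 1.19 in *Scnn1b*-Tg lungs from PND 3 to PND 10. It was picked after its values were seen, from an interval in which 1.05% and 0.817% of all rows were called higher.

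In the NK cell list 3 of 24 measured genes were called higher from PND 0 to PND 42 in each genotype (1.71% and 2.48% of all rows). *Klrd1* (CD94; 1.36 and 1.69) and *Klrb1b* (1.15 and 1.29), which encode lectin-like NK cell receptors, were called in both. *Klrg1*, a receptor of mature NK and T cells, was called in WT (1.00), and *Tyrobp*, a signalling adaptor that myeloid cells also carry, in *Scnn1b*-Tg lungs (1.26). From PND 10 to PND 42 in WT lungs the list's lowest p were those of *Klrb1b* (0.98, adjusted p = 0.000543), *Klrd1* (0.66), *Cd226* (0.40) and *Klrk1* (0.34), all under 2-fold. Of the 24 cytotoxic granule genes *Ccl5*, a chemokine stored and secreted by cytotoxic cells, rose from PND 10 to PND 42 by 2.16 in WT (SE 0.27, adjusted p = 3.12e-06) and by 1.72 in *Scnn1b*-Tg lungs (adjusted p = 4.28e-05). It was the only one of that list called in this interval, where 1.7% of all rows in WT and 1.79% in *Scnn1b*-Tg lungs were called higher. *Stx11*, which takes part in granule release, differed by 0.86 (adjusted p = 0.00703) in the same WT interval, the death ligand gene *Fasl* by 0.30 (adjusted p = 0.0511) and *Ctsw*, a protease of cytotoxic cells, by 0.33 (adjusted p = 0.131). *Rab27a*, which docks granules and is used by many other cells, fell from PND 0 to PND 42 by 1.06 in WT and 1.10 in *Scnn1b*-Tg lungs. The summed level (log2) of the granule list, which holds none of the members, lay between 12.18 and 12.33 at PND 42 in WT, against 12.48 to 12.54 at PND 0. In *Scnn1b*-Tg lungs it lay between 12.41 and 12.81, against 12.33 to 12.54. Such sums, here and below, add unlogged levels, so the brightest probe sets weigh most. They are therefore not read as a change of the list's genes in common. Of 25 helper and regulatory genes none was called from PND 0 to PND 42 in WT lungs, where 1.71% of all rows were called and 13 of the 25 passed the adjusted p upwards (23% of all rows and 51.1% of the olfactory receptor rows). In *Scnn1b*-Tg lungs 2 were called (2.48% of all rows), the chemokine receptors *Cxcr3* (1.06) and *Cxcr6* (1.18). From PND 10 to PND 42 in WT lungs the lowest p of that list were those of *Bcl6* (0.93, adjusted p = 0.00413), *Il2ra* (0.38), *Cxcr3* (0.48) and *Ikzf2* (0.35).

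Between the genotypes at PND 42, 1 gene of these 4 lists was called. *Il7r* had a mean of 6.56 in *Scnn1b*-Tg and 5.45 in WT lungs and was higher by 1.11 (SE 0.20, adjusted p = 0.00472), beside 0.326% of all rows called higher. Next in the T cell list came *Thy1* (0.31, adjusted p = 0.442), *Bcl11b* (0.30) and *Rasgrp1* (0.23). *Ccl3*, a chemokine that macrophages also make, differed by 2.66 (SE 0.65, adjusted p = 0.053), and next in the granule list came *Ctsc* (0.67, adjusted p = 0.126), *Slc29a3* (0.49) and *Serpinb9* (0.42). The type 2 cytokine gene *Il5* differed by -0.75 (adjusted p = 0.0864), followed in the helper list by *Cxcr6* (0.42), *Cxcr3* (0.28) and *Il2ra* (-0.22). In the NK cell list the lowest p were those of *Tyrobp* (0.61, adjusted p = 0.215), *Klrd1* (0.36, adjusted p = 0.475), *Txk* (-0.29) and *Klrb1c* (0.19). The 4 list medians lay between 0.02 and 0.09.

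Some markers of other leukocytes were called at that age, at which 0.326% of all rows were called higher and 0.0138% lower. Of 11 macrophage and monocyte markers 2 were called higher in *Scnn1b*-Tg lungs, *Cd68*, a lysosomal protein (1.69, adjusted p = 0.000353), and *Mrc1*, the mannose receptor (1.27, adjusted p = 0.00197), with a list median of 0.81 and a summed level (log2) between 13.7 and 14.1 against 13.3 to 13.6 in WT. Of 12 dendritic cell markers *Itgax* was called (1.96, adjusted p = 0.000516; list median 0.25; summed level 9.32 to 10.0 against 8.67 to 8.81), and of 10 markers of all leukocytes *Itgb2* was called (1.42, adjusted p = 0.0016; median 0.39; summed level 11.7 to 12.2 against 11.2 to 11.5). The study also takes *Itgax* as a marker of resident alveolar macrophages, and the cells behind its difference were not tested. Of 11 B cell markers none was called (median 0.02; 0 had an adjusted p of at most 0.05; summed level 8.88 to 9.63 against 9.06 to 9.24). The part of these cells in the differences of *Il7r*, *Tyrobp* and *Ccl3* was not tested.

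**Figure D5:**
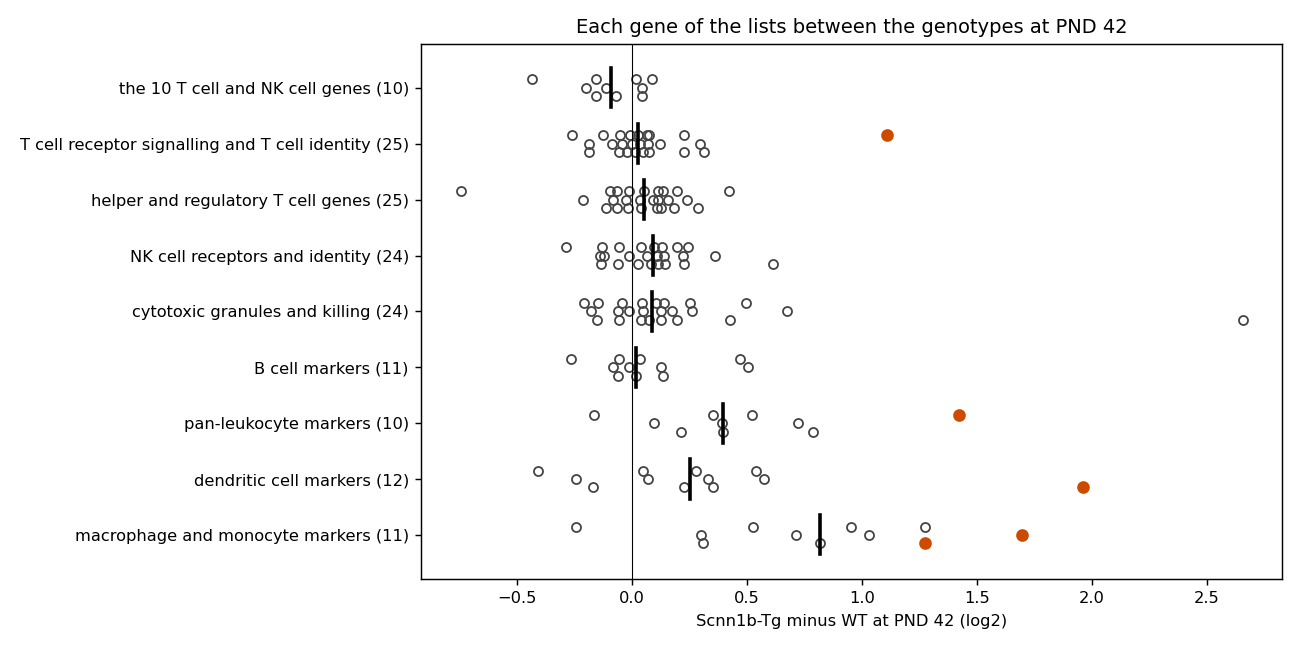
Difference between the genotypes at PND 42 (*Scnn1b*-Tg minus WT, log2) for each gene (circle) of the 10 T cell and NK cell genes and of 8 lists, with the number of measured genes in brackets; bars are medians and filled circles are genes that were called. The 10 genes lie between -0.44 and 0.09, with no filled circle, while the macrophage and monocyte list has its median at 0.81.

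The genes outside the set whose levels ran most closely with each member over the 24 arrays (Pearson's r, a description, since the arrays share 4 ages) differed by member. *Gzma* ran with *Ms4a6b* (r = 0.937), *Cd69* (0.926) and *Klrb1b* (0.918), and *Ncr1* with *Fcrl1* (0.920), *Wdr64* (0.904) and *Klrb1b* (0.902). *Nkg7* ran with *H2-DMa* (0.934), *Cd8b1* (0.912) and *Cd2* (0.908), and *Cd8a* with *Nrn1* (0.956), *Ccr7* (0.949) and *Pcolce2* (0.933). *Cd3g* ran with *Cd48* (0.905), *Igfbp2* (0.903) and *C1qtnf2* (0.898), *Cd3d* with *Vmn1r180*, *Gstt1* and *Cd48* (0.902 to 0.917), and *Cd3e* with *Nrn1*, *Sod3* and *Agmo* (0.908 to 0.920). *Cd4* ran with *Olfr142*, *Cyp2b9* and *Oosp1* (0.884 to 0.893) and *Prf1* with *Spdye4b*, *Prl2c1* and *Ifi209* (0.853 to 0.911). *Gzmb* stood apart, with its closest gene *Irgm1*, an interferon-induced GTPase, at 0.717, followed by *Ms4a6c* (0.699) and *Gm12250* (0.643), and a mean r of 0.148 with the other 9 members against 0.532 to 0.732 for these.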

How the data were processed

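The authors had reduced each whole-lung array to 1 log2 value per transcript cluster before deposit, using RMA and quantile normalization (Partek, version 6.5 in the labels). The deposited table held 35,556 rows, of which 21,789 name exactly 1 gene and were tested, 1,621 name several and 12,146 name none. Groups came from the sample labels, no array was left out, and no values were normalized again. Arrays carry no read depth, so that the number of pools limits the precision.

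A mean for each group was fitted over the 24 arrays with lmFit and moderated with eBayes (limma 3.58.1, statmod 1.5.0, R 4.3.3), leaving 16 residual degrees of freedom. Contrasts gave each age interval in each genotype, the genotypes at each age, and the difference of the intervals. p values were adjusted by Benjamini-Hochberg over the 21,789 rows within a contrast, and calls needed a 2-fold change with an adjusted p no higher than 0.05. Intervals are 95%. The replicates are of separate animals by their labels, which list 1 animal only for *Scnn1b*-Tg PND 42 replicate 3. The fit was tested on simulated data with 200 changed genes.

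The members and the 14 gene lists were chosen with earlier results of these data known. The text names all 10 members, from each of the 4 lymphocyte lists up to 4 genes with the lowest p from PND 10 to PND 42 in WT and between the genotypes at PND 42, and the 3 genes closest to each member by r. List genes named for other intervals, other-cell markers, and *Scnn1b* and *Sftpc* apart, were chosen after their values were seen. Promoter windows came from RefSeq (GRCm38.p6), and no gene coordinates of the arrays were used. Alternatives were unmoderated fits, fits limited to the arrays compared, fits with a trend on intensity, with array weights or with the replicate number as a block, other rows, normalizations and fold thresholds, and each array left out.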

Additional observations from a re-analysis of the deposited data

How the results depend on the processing

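No member changed direction with a call under any alternative. With no fold threshold, the members called were 5 (PND 0 to PND 3), 7 (PND 10 to PND 42) and 9 (PND 0 to PND 42) in WT and 5, 7 and 8 in *Scnn1b*-Tg lungs, in place of 2, 1 and 4. At 1.5-fold they were 3 and 8 in WT and 4 and 8 in *Scnn1b*-Tg lungs for the last 2 of these. The *Scnn1b*-Tg counts of 7 and 4 from PND 10 to PND 42 take in *Cd3g*, which was lower. With both genotypes averaged, added after the data were seen, 1 member was called from PND 3 to PND 10, where WT alone had 0. Leaving out each array in turn gave 2 to 2 calls from PND 0 to PND 3 in both genotypes, 0 to 0 (WT) and 1 to 1 (*Scnn1b*-Tg) from PND 3 to PND 10, 1 to 2 from PND 10 to PND 42 and 3 to 4 from PND 0 to PND 42 in both, and 0 to 0 between the genotypes at every age and for every difference of intervals.

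*Cd8a* decided the lost calls from PND 0 to PND 42: its change was 0.92 and 0.91 without WT PND 42 replicate 1 or 2, 0.99 and 0.87 without *Scnn1b*-Tg PND 0 replicate 2 or PND 42 replicate 1, 0.95 (WT) and 0.93 (*Scnn1b*-Tg) after repeated quantile normalization and 0.99 (*Scnn1b*-Tg) with array weights. The gained calls were *Nkg7* from PND 10 to PND 42 without WT PND 42 replicate 2 (1.10), *Cd3g* in the same interval without *Scnn1b*-Tg PND 10 replicate 3 (-1.05), and *Nkg7* in the WT interval up to PND 3 with array medians subtracted (1.02). The other 2495 member results stayed called or stayed uncalled. A gene that crossed the adjusted p alone, as *Cd4*, *Cd8a* and *Prf1* did above, counts among these. The cause of the lost and gained calls was not tested, apart from fewer arrays in the fits that left an array out. Subtracting array medians moved the median of all rows from PND 0 to PND 3 from 0.07 to 0.21 in *Scnn1b*-Tg lungs.

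With the replicate number as a block, the counts were 2, 0, 1 and 4 in WT and 2, 1, 1 and 4 in *Scnn1b*-Tg lungs over the 4 age comparisons and 0 between the genotypes, as without the block. The block gave each replicate number the same effect at all ages, so it could not take up a pairing within an age. The deviations of same-numbered arrays had r between -0.255 and 0.299, above 0.1 in 5 of 12 pairs. At PND 0 these r were 0.299, 0.153 and 0.290, while each later age held both signs. The numbers were not read as pairs. A filter on rows with a group mean above 5 kept 5 members (*Cd3g*, *Cd8a*, *Gzma*, *Prf1*, *Nkg7*) of 13,231 rows, so the other 5 have no value under it. Having 3 arrays a group and dim probe sets limits what small changes can show.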
